A study of Mus musculus with 9 samples.

Results

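Potassium channel genes were taken here as every gene of the expression table whose RefSeq symbol begins with Kcn, with the rows of a symbol added. The symbols number 98 in the RefSeq gene table, and 68 of them, from 75 rows, were among the 14771 named genes measured. The other 30 were not analysed here. Messenger RNA had been sequenced from 3 groups of 3 mouse libraries. OB cells came from olfactory bulb tumours and BS cells from brainstem tumours, both on a mixed 129 and C57BL/6 background, with the genotype given as Foxr2 overexpression and p53 cko. AG cells are astroglia of the C57BL/6 strain that bear p53 DN and an shRNA against Nf1. Every group thus has an altered p53, and no library came from unaltered cells. What drives Foxr2, the source of Cre and the culture history were not found in the labels. Strain, genotype and origin differ together between AG and either tumour group, and their parts in a difference cannot be told apart. The labels do not say that libraries came from separate animals or cultures, so the p-values measure the spread between these libraries, which may be technical.

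Potassium channels let potassium ions leave or enter a cell along their gradient and so set its resting potential and end its action potentials. Voltage-gated channels open on depolarization, inward rectifiers pass current most easily near rest, tandem-pore channels carry background leak, and calcium-activated channels couple the potential to calcium. In brain, glia use inward rectifiers and leak channels to take up potassium that neurons release, and oligodendrocyte precursors also carry voltage-gated currents. Auxiliary subunits change the gating or the transport of the pore proteins.

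The libraries held 11300273 to 13927771 reads in OB, 12680832 to 15282668 in BS and 14987773 to 19868282 in AG. Values are normalized reads, and changes are differences of log2(normalized reads + 1) with their SE, which understate the change of low genes. Foxr2 stood at 4505 to 6814 normalized reads in OB and 7377 to 12567 in BS, against 1 read in all AG libraries together. Nf1 had 4184 to 8620 in OB and 4642 to 6239 in BS, against 1334 to 1588 in AG. Trp53, the p53 gene, had 17.7 to 51.4 in OB, 18.1 to 35.5 in BS and 23.3 to 34.8 in AG, ranges that overlap. Libraries within AG lay much closer together than tumour libraries did (chi-square per gene 130 to 253 in OB, 88.3 to 234 in BS and 4.68 to 10.9 in AG). The astroglia label was set against 7 astrocyte markers in the table. Their summed level was 6723 to 29704 in OB, 14430.2 to 27617 in BS and 5746 to 6288 in AG. In AG, Gja1 (4961 to 5396) and Slc1a3 (753 to 855) carried most of it. Gfap, Aqp4 and Aldh1l1, each with several transcripts, were near 0 there (at most 5.91). The tumour sums were mostly S100b in OB_257 (6616) and mostly Slc1a3 in every other tumour library (11447 to 25665). Gja1 was instead below AG in every tumour library, at 1.11 to 662 in OB and 369 to 2879 in BS. At an adjusted p under 0.05, limma put 2 of 4 tested astrocyte markers higher and 1 (Gja1) lower in OB. For BS it put 1 higher and 0 lower. The astrocyte markers therefore did not share a direction. Summed oligodendrocyte precursor markers, 6 of 6 in the table, ran from 40344 to 72013 in OB and from 33881 to 80009.8 in BS, against 17.4 to 20.0 in AG, where Olig2 was at 0. Mature oligodendrocyte markers summed to 1472 to 26674 in OB, highest in OB_257, to 159 to 1052 in BS and to 105 to 109 in AG. Neuron markers summed to 2222 to 4566 in OB, 1076 to 5208 in BS and 695 to 796 in AG. Pericyte and smooth muscle markers, 3 of 6 in the table, went the other way, with 18.8 to 73.9 in OB and 8.39 to 40.4 in BS, against 52560 to 56002.5 in AG, nearly all of it Acta2, the smooth muscle actin gene. Endothelial markers, 4 of 5 in the table, summed to 11.1 to 212 in OB and 28.6 to 242 in BS, against 921 to 1035 in AG, where Cdh5 and Cldn5 were at 0 and Flt1 made up most of the sum. Microglia markers, 3 of 6 in the table, summed to 68.5 to 81.8 in OB, 32.0 to 103 in BS and 59.2 to 71.0 in AG. The part of these cell types in the channel results was not tested. In bulk RNA, fewer cells of a type and less RNA per cell cannot be told apart.

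Genes with several annotated transcripts had low values in this table, with a median row of 258.6 normalized reads for genes of 1 RefSeq transcript and 12.57 for genes of 2. Of the 68 members, 52 have 1 RefSeq transcript, and 33 of these passed the filter of 10 normalized reads in at least 3 libraries. The other 16 have several, and 6 of these passed. A low value of such a gene, as of Kcng1, Kcnh2 and Kcnc1 in AG, is not read as low expression. In all, 39 members were tested and 29 were not, the highest value of an untested member in any library being 71.4 (Kcna1 in OB_287). By class, the highest untested value was 71.4 for 8 voltage-gated genes, 59.1 for 7 auxiliary subunits, 58.7 for 2 calcium-activated genes, 16.2 for 7 tandem-pore genes, 5.53 for 4 inward rectifiers and 2.21 for 1 noncoding RNA. Of all 68 members, 18 had 0 reads in AG. Just inside the filter lay Kcnh3, Kcnj13 and Kcna4, whose third-highest library had 10.9, 11.8 and 14.1. Just outside it lay Kcng2, Kcnn2 and Kcnh8, with 9.78, 8.53 and 7.61.

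The channel genes together took a larger part of the tumour libraries than of the AG libraries. Their summed values made up 0.0753% to 0.214% of the normalized reads in OB and 0.119% to 0.157% in BS, against 0.0118% to 0.0128% in AG. Members with at least 100 normalized reads numbered 11 to 18 per OB library and 15 to 18 per BS library, against 4 to 5 per AG library. No tumour library overlapped AG in either measure.

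**Figure D1:**
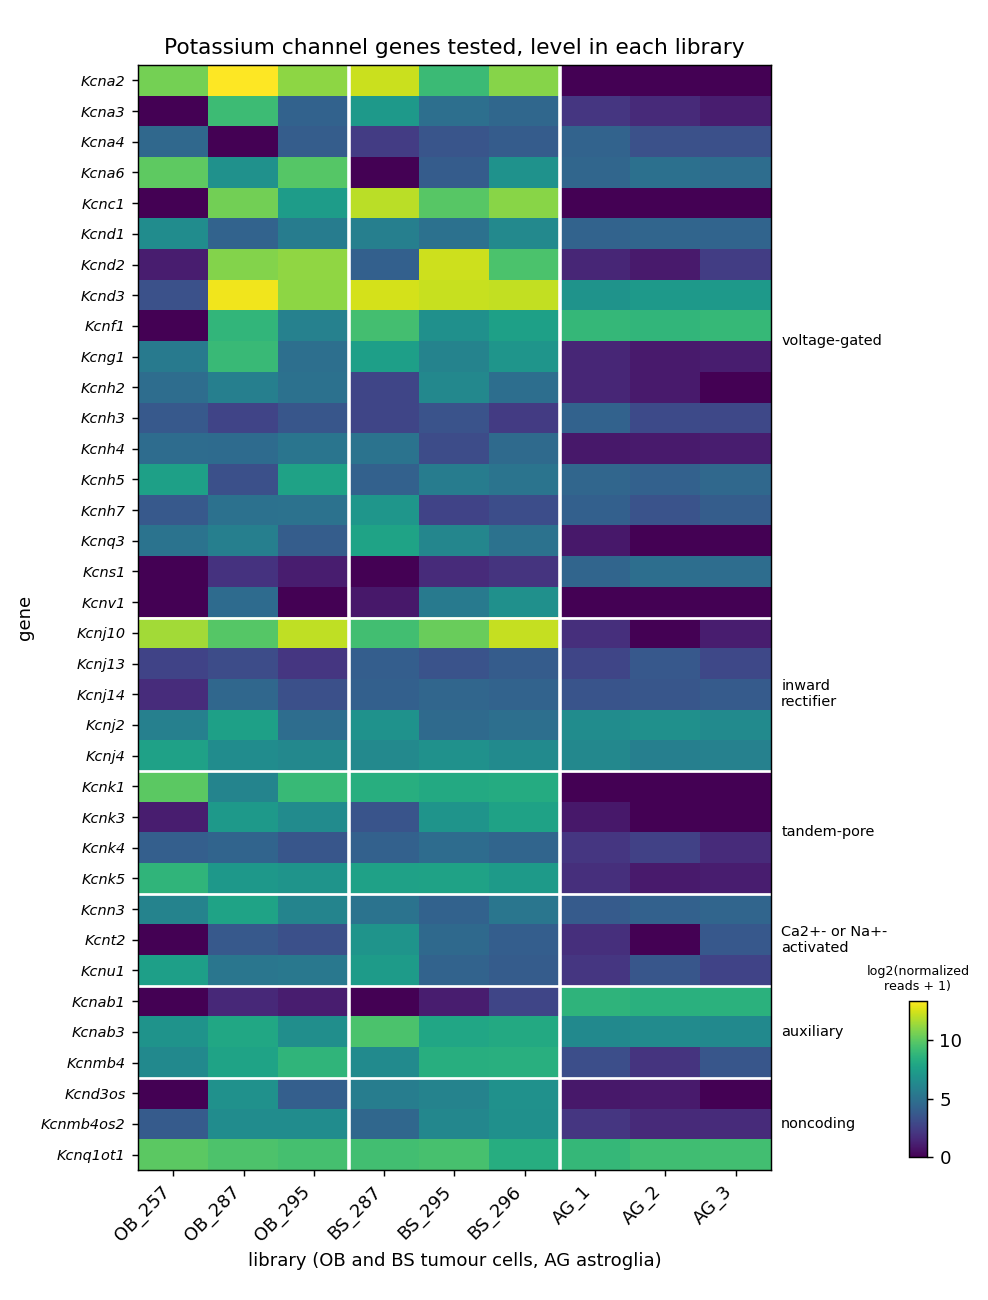
Level of 36 of the 39 tested potassium channel genes as log2(normalized reads + 1), with genes down the page by channel class and libraries across, OB and BS before AG. The AG columns look alike, whereas tumour columns of the same group differ, as for Kcnd3 at 8.84 normalized reads in OB_257 and 8690.5 in OB_287.

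In OB against AG, limma called 18 of 39 tested members, where 34.9% of all 10576 genes tested were called. Of the members 16 were higher, with 16.0% of all genes higher, and 2 lower, with 19.0% of all genes lower. In BS against AG it called 20 of 39, where 35.1% of all genes were called. Here 18 members were higher, with 15.6% of all genes higher, and 2 lower, with 19.5% of all genes lower. A call is an adjusted p under 0.05. The median change of the tested members was 2.86 in OB and 3.31 in BS, against -0.01 and -0.03 over all genes tested. These counts are a description and no support for a shift of the class, because 18 of the 39 members had no AG library at 10 or more and so passed the filter only through tumour libraries. Of those 18, 12 were called higher in OB and 15 in BS. Among the 21 members with an AG library at 10 or more, 4 were called higher and 2 lower in OB, and 3 higher and 2 lower in BS. Of the 9528 genes tested with such an AG library, 11% were called higher and 21.1% lower in OB, and 10.9% higher and 21.6% lower in BS. Both comparisons share the AG libraries. In them 14 members were called higher in both, 2 lower in both (Kcnab1 and Kcns1), 2 higher in OB only and 4 higher in BS only, while 17 were never called. Leaving out OB_257 raised the OB count to 21 higher and 2 lower, with 1718 of 10449 genes higher and 2001 lower. Leaving out any AG library ended both lower calls, since neither gene then reached the filter.

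**Figure D2:**
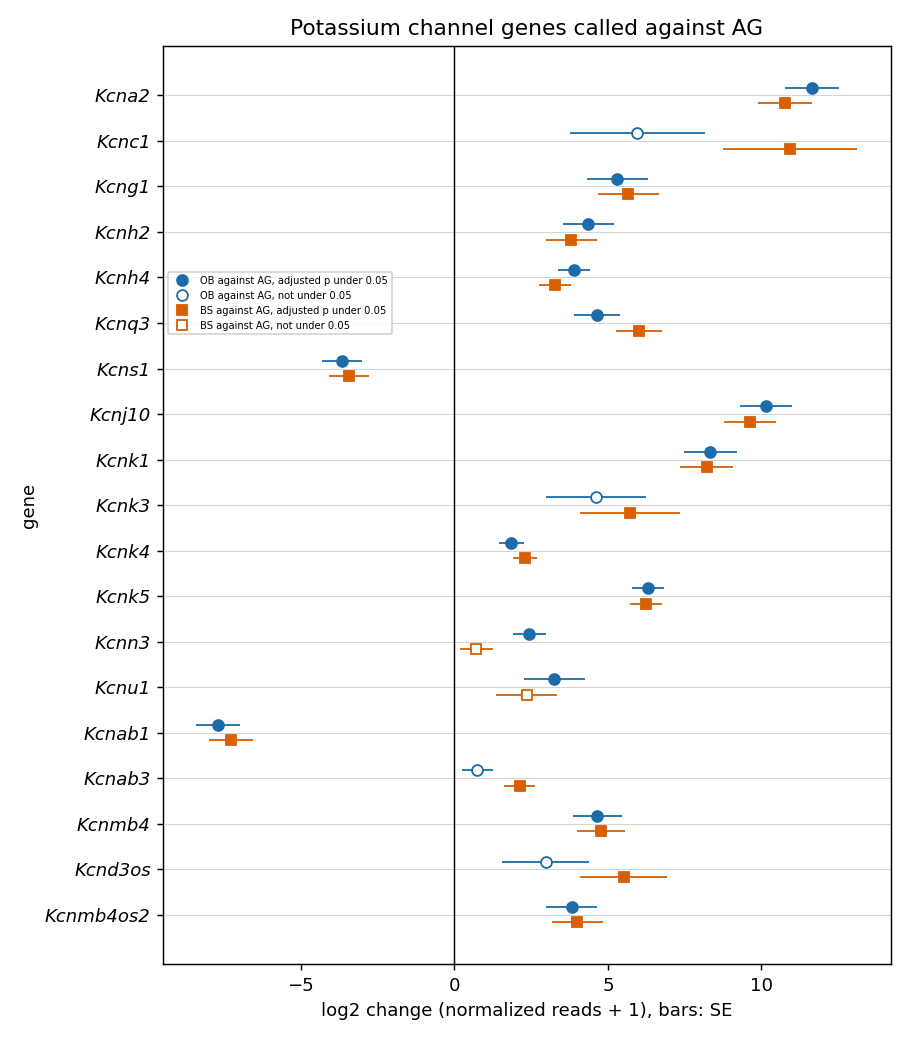
Change against AG, as a difference of log2(normalized reads + 1), for 19 of the 22 members called in at least 1 tumour group; circles are OB against AG, squares BS against AG, filled where the limma adjusted p was under 0.05, and bars are SE. Apart from Kcnab1 and Kcns1 at the left, every filled point lies right of 0.

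Voltage-gated genes made up 29 members, of which 21 were tested. In OB 8 were called higher and 1 lower, and in BS 9 higher and 1 lower. Kcna2, a Shaker-type pore subunit known from the juxtaparanodes of myelinated axons, had the most normalized reads, not corrected for length, of the members called higher in both tumour groups. Kcna2 had 1488, 10418 and 2155 normalized reads in OB_257, OB_287 and OB_295 and 4929.7, 556 and 1931 in BS_287, BS_295 and BS_296, against 0 reads in every AG library. All tumour libraries lay above AG, and they spread 18.7-fold among themselves. Against a floor of 3 reads per AG library, equal to 2.91 normalized reads, the lowest OB library was at least 512-fold and the lowest BS library at least 191-fold higher. The limma adjusted p was 3.44e-05 in OB and 4.84e-05 in BS.

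Promoter sequences are shown for Kcna2 and for Kcnj10, the glial inward rectifier, as the members called higher in both tumour groups with the highest tumour means and a single entry in the RefSeq promoter table. Each is the 250 bases before the annotated start, on the plus strand of GRCm38.p6, a build other than that of the expression table. Capitals mark a match to any of 4 searched motifs, on either strand: the E-boxes CAGCTG and CAGATG, the SOX motif ACAAAG and the ETS motif CCGGAAG. No matches overlapped. The window of Kcna2 is chr3:107101317-107101566 and that of Kcnj10 is chr1:172340960-172341209.
Kcna2: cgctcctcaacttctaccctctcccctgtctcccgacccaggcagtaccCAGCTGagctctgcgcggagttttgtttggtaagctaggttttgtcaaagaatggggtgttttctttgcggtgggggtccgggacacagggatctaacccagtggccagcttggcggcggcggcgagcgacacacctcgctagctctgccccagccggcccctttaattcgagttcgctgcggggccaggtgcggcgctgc
Kcnj10: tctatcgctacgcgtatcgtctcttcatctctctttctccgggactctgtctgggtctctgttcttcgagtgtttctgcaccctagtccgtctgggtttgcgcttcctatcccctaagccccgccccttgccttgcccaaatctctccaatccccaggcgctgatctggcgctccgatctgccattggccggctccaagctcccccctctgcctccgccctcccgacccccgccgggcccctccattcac
The Kcna2 window held 1 match, CAGCTG, at position -201 from the start, and the Kcnj10 window held 0. Both windows were rich in G and C, at 62.4% for Kcna2 with 18 CG pairs and 62% for Kcnj10 with 17, against medians of 52.4% and 6 CG pairs over 32851 such windows. Of the 13 coding members called higher in both groups, 8 had a promoter entry. CAGCTG was found in 2 of the 8 (Kcna2 and Kcnk4) and in 14.7% of 27025 genes, ACAAAG in 1 (Kcnmb4) and in 18.6%, and CAGATG and CCGGAAG in 0 and in 16.3% and 7.83%. A match is a description of the letters and not a site.

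Kcng1, a silent subunit that modifies other voltage-gated subunits, has several transcripts. It had 43.1, 528 and 28.3 normalized reads in OB and 182, 61.9 and 123 in BS, against 1.67, 0.986 and 1.09 in AG. It was higher by 5.30 ± 0.99 in OB (limma adjusted p = 0.0039) and 5.66 ± 0.99 in BS (limma adjusted p = 0.00291), with 1 OB library far above the others. Another silent subunit, Kcns1, went the other way, with 0 to 2.85 in OB and 0 to 2.96 in BS, against 19.2 to 27.6 in AG, and fell by 3.64 in OB (limma adjusted p = 0.00316) and by 3.43 in BS (limma adjusted p = 0.00435). The silent subunits therefore did not share a direction. A further silent subunit, Kcnf1, named after its values were seen, was at least as high in every AG library as in any tumour library but BS_287: 0, 442 and 57.6 in OB and 652, 102 and 193 in BS, against 473, 446 and 482 in AG. Its change did not pass the test in OB (limma adjusted p = 0.132) or in BS (limma adjusted p = 0.715).

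Kcnq3, a subunit of the neuronal M-current, had 33.2, 53.3 and 14.1 normalized reads in OB and 216, 69.3 and 31.5 in BS, against 0.834, 0 and 0 in AG. It was higher by 4.63 ± 0.75 in OB (limma adjusted p = 0.00184) and 6.01 ± 0.75 in BS (limma adjusted p = 0.000472). Kcnh2 and Kcnh4 were also called in both groups, each with a mean under 50. Kcnh2, the gene of the ether-a-go-go related channel that repolarizes the heart, had 26.5, 52.3 and 30.4 in OB and 5.87, 73.6 and 27.6 in BS, against 1.67, 0.986 and 0 in AG. Kcnh2 also has several transcripts.

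**Figure D3:**
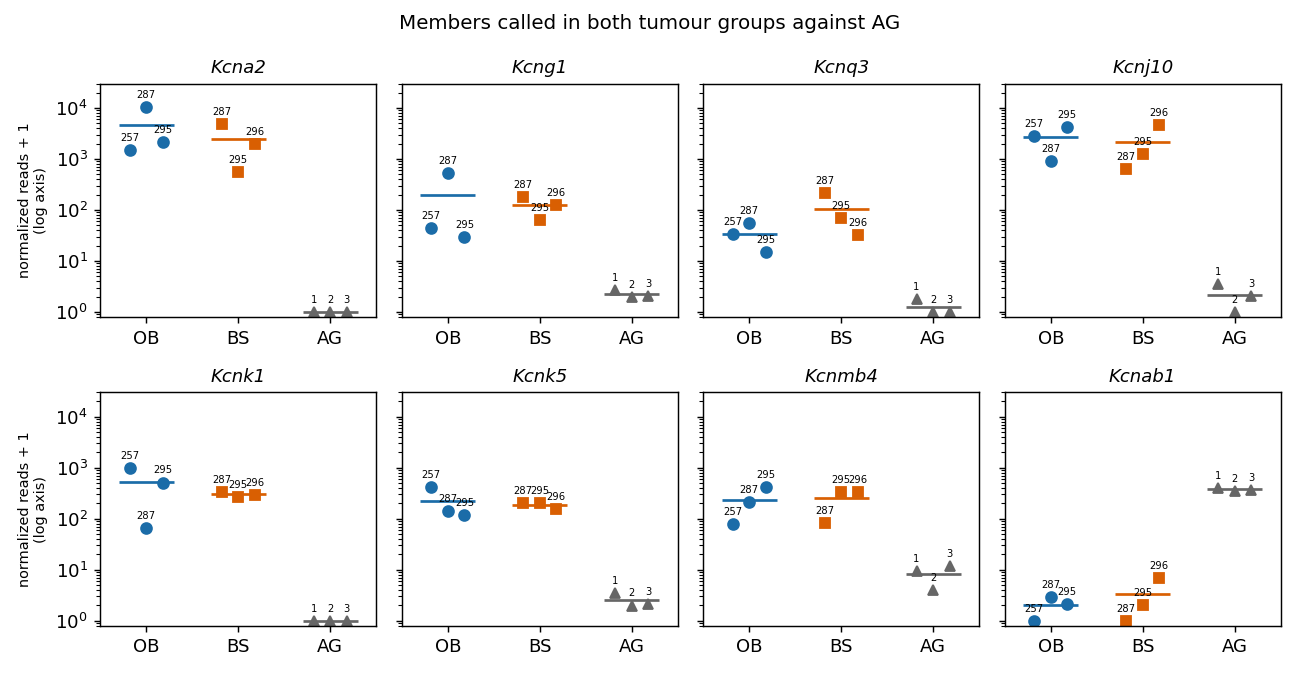
Normalized reads + 1 on a log axis in each library for 8 members called in both tumour groups, picked after their values were seen; points carry the library number, bars are group means, and OB and BS stand left of AG. For Kcna2, Kcng1, Kcnq3, Kcnj10, Kcnk1, Kcnk5 and Kcnmb4 every tumour point lies above every AG point, and for Kcnab1 every tumour point lies below.

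Kcnc1, Kcnd2 and Kcnd3 reached high levels in most tumour libraries but were low in others. Kcnc1, the fast delayed rectifier of rapidly firing neurons, had 0, 1466 and 164 normalized reads in OB and 3943, 953 and 1983 in BS, against 0 reads in AG. All BS libraries lay above AG, the lowest at least 328-fold above the floor of 3 reads, with a limma adjusted p of 0.0056. OB_257 lay with AG, and the change in OB, 5.96 ± 2.20, did not pass (limma adjusted p = 0.0651). Without OB_257 it was 8.94 (limma adjusted p = 0.00028), the adjusted p ranging from 0.000112 to 0.164 over all alternatives. Of the rows added for Kcnc1, 1 held 90.7% to 96.2% of its normalized reads in the tumour libraries that had any.

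Kcnd2 and Kcnd3, the pore subunits of the transient A-type current, were not called by limma on all 9 libraries in either tumour group. That fit pools the spread of all groups, so the SE in BS also holds the OB spread. Kcnd3 had 8.84, 8690.5 and 2125 normalized reads in OB and 5694, 4854 and 4427 in BS, against 116, 143 and 147 in AG. All BS libraries lay above AG, while OB_257 lay below it and the other OB libraries above. The change was 2.06 ± 2.06 in OB (limma adjusted p = 0.469) and 5.20 ± 2.06 in BS (limma adjusted p = 0.0819). Without OB_257 the change in OB was 4.99 (limma adjusted p = 0.000275), and over all alternatives the adjusted p ran from 0.000275 to 0.975. In BS it ran from 8.33e-06 to 0.181 over all alternatives. Kcnd2 had 1.11, 1857 and 2270.3 in OB and 15.9, 5206 and 764 in BS, against 1.67, 0.986 and 4.36 in AG. Here OB_257 lay within AG and BS_287 was far under the other BS libraries. The change was 6.09 ± 2.85 in OB (limma adjusted p = 0.131) and 7.06 ± 2.85 in BS (limma adjusted p = 0.087). It was 9.40 in OB without OB_257 (limma adjusted p = 0.00901, range over the alternatives 3.04e-05 to 0.327) and 9.35 in BS without BS_287 (limma adjusted p = 0.0373, range 9.47e-06 to 0.23). Both genes were called in both tumour groups by edgeR and by DESeq2 on the recovered reads. In BS a limma fit of BS and AG alone also called both.

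Kcna6, another Shaker-type subunit, had 1051, 108 and 905 normalized reads in OB and 0, 13.9 and 110.3 in BS, against 20.0, 29.6 and 26.1 in AG. All OB libraries lay above AG, and BS libraries lay on both sides of it. The change in OB, 4.18 ± 1.56, did not pass (limma adjusted p = 0.0677), and without OB_287 it was 5.24 (limma adjusted p = 0.0446, range over the alternatives 0.000879 to 0.168). In BS it was -1.13 ± 1.56 (limma adjusted p = 0.607), a sign that turned with edgeR, with DESeq2 and without BS_287. Kcna3, named after its values were seen, had 0, 560 and 17.4 in OB and 142, 28.8 and 20.7 in BS, against 3.34, 1.97 and 1.09 in AG. It was not called by limma on all 9 libraries, but edgeR called it in OB. The other voltage-gated members tested and never called by that limma fit were Kcna4, Kcnd1, Kcnh3, Kcnh5, Kcnh7 and Kcnv1, which reached at most 202 in any library. Of these, edgeR and DESeq2 called Kcnh5 in OB, and DESeq2 called Kcnd1 and Kcnv1 in BS.

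**Figure D4:**
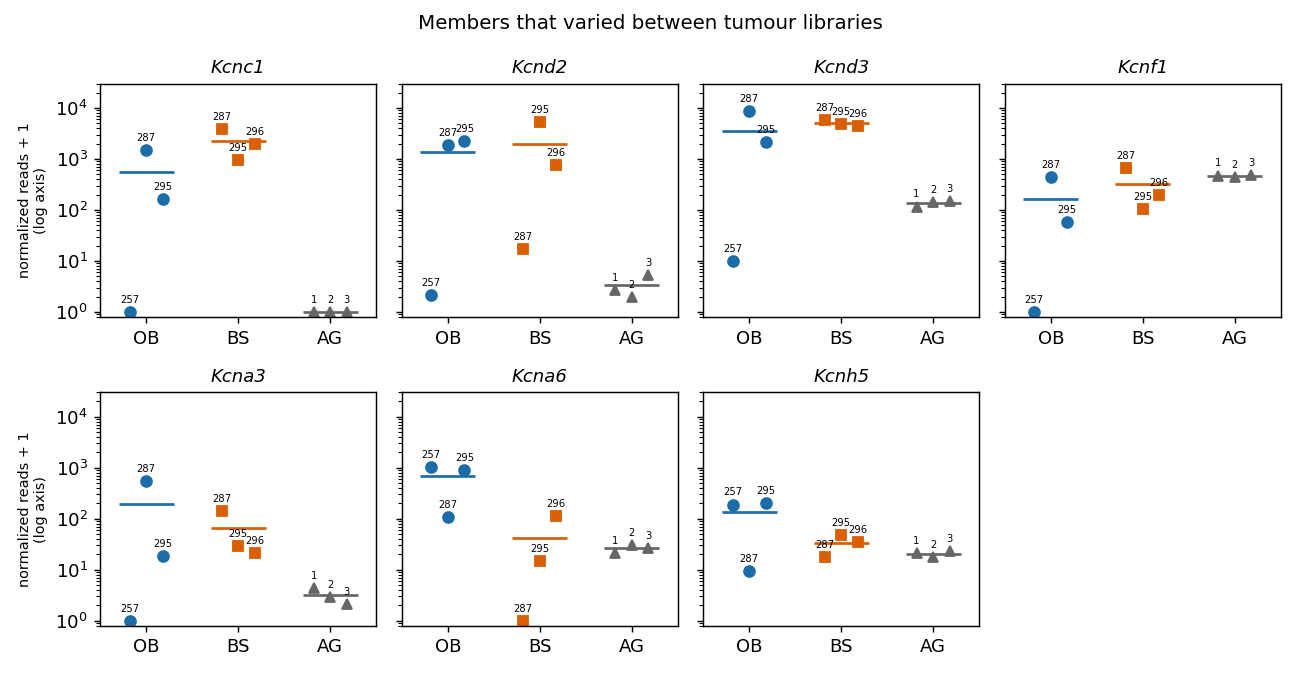
Normalized reads + 1 on a log axis in each library for 7 voltage-gated members that varied between tumour libraries, picked after their values were seen; points carry the library number, bars are group means, and OB and BS stand left of AG. OB_257 is the lowest OB point for Kcnc1, Kcnd2, Kcnd3, Kcnf1 and Kcna3, but the highest for Kcna6.

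Inward rectifiers made up 9 members, of which 5 were tested and 1 was called, in both tumour groups. Kcnj10, the main potassium uptake channel of astrocytes and oligodendrocytes, had 2859, 898 and 4269 normalized reads in OB and 637, 1252 and 4651 in BS, against 2.5, 0 and 1.09 in AG. Every tumour library lay above AG, by 10.16 ± 0.85 on the log2 scale in OB (limma adjusted p = 5.34e-05) and 9.64 ± 0.85 in BS (limma adjusted p = 7.01e-05). Its promoter window is printed above beside that of Kcna2. The astrocyte water channel gene Aqp4, which has several transcripts, had at most 1.97 in any library. Kcnj2 and Kcnj4, strong inward rectifiers, had values of the same order in all groups: Kcnj2 had 26.1 to 191 in OB and 23.5 to 111 in BS, against 82.8 to 102 in AG, and Kcnj4 had 75.0 to 197 in OB and 76.3 to 108 in BS, against 53.2 to 73.4 in AG. Neither passed the test, with limma adjusted p of 0.679 and 0.141 in OB and 0.316 and 0.351 in BS. The other tested members, Kcnj13 and Kcnj14, stayed at or under 20.9 in every library.

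Tandem-pore genes made up 11 members. The 4 that were tested, Kcnk1, Kcnk3, Kcnk4 and Kcnk5, had all AG libraries under 5 normalized reads and so passed the filter only through tumour libraries. Kcnk1, a weakly rectifying leak channel, had 1000.2, 64.7 and 512 in OB and 335, 269.9 and 292 in BS, against 0 reads in AG. Its lowest OB library was at least 22.3-fold and its lowest BS library at least 92.8-fold above the floor of 3 reads, with limma adjusted p of 0.000168 in OB and 0.000183 in BS. BS libraries lay close together, within the range that OB libraries spanned. Kcnk5, a leak channel that alkaline pH opens, had 419, 139.9 and 118 in OB and 201, 204 and 153 in BS, against 2.5, 0.986 and 1.09 in AG. It was higher by 6.30 ± 0.52 in OB (limma adjusted p = 4.92e-05) and 6.25 ± 0.52 in BS (limma adjusted p = 5.00e-05). The tumour groups overlapped, with a difference of OB minus BS of 0.05 ± 0.52 (limma adjusted p = 0.987).

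Kcnk3, an acid-sensitive leak channel, had 1.11, 144 and 85.9 normalized reads in OB and 10.1, 119 and 205 in BS, against 0.834, 0 and 0 in AG. OB_257, with 1 read, lay at the level of AG, and BS_287 was the low BS library. The change in BS, 5.73 ± 1.63, passed (limma adjusted p = 0.026), but not without any of AG_1, AG_2, AG_3, BS_295 or BS_296 left out in turn (limma adjusted p 0.0666 to 0.0857, range over the alternatives 2.51e-05 to 0.0857). In OB it was 4.61 ± 1.63 and did not pass (limma adjusted p = 0.0578), while without OB_257 it was 6.52 (limma adjusted p = 0.00354, range over the alternatives 8.72e-05 to 0.16). Kcnk3 overlaps an opposite-strand gene of the table, Gm9899, and the strand setting of the counting is not given, so reads of the 2 cannot be told apart. The same limit holds for other members that overlap an opposite-strand gene, with or without a row, among them Kcnk1, Kcna6, Kcnab3, Kcnt2 and Kcnq1ot1. Kcnk4, a mechanosensitive leak channel, had 10.9 to 19.0 in OB and 16.8 to 25.6 in BS, against 2.18 to 4.93 in AG. It was called in both groups, although the call in OB ended without AG_3 (limma adjusted p = 0.0514, range over the alternatives 0.00294 to 0.0514). It overlaps Catsperz on the same strand.

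Calcium- or sodium-activated genes and their relatives made up 5 members, of which 3 were tested. Kcnn3, a small-conductance channel opened by calcium, had 60.8, 209 and 64.1 normalized reads in OB and 32.7, 17.1 and 37.4 in BS, against 13.3, 16.8 and 19.6 in AG. All OB libraries lay above all BS and all AG libraries. The change was 2.44 ± 0.55 in OB (limma adjusted p = 0.00901) and 0.72 ± 0.55 in BS (limma adjusted p = 0.34). Kcnu1, a relative of the large-conductance channel known from sperm, had 185, 37.1 and 40.2 in OB and 159, 18.1 and 13.8 in BS, against 3.34, 10.8 and 5.44 in AG. Both tumour groups lay above AG throughout, and the change passed in OB at 3.26 ± 0.99 (limma adjusted p = 0.0334) and not in BS at 2.36 ± 0.99 (limma adjusted p = 0.0978). The call in OB was lost with any of AG_1, AG_2, AG_3, OB_257 or OB_295 left out (limma adjusted p 0.0507 to 0.116, range over the alternatives 0.0148 to 0.116). Kcnt2, a sodium-activated channel, had 0 to 12.4 in OB and 14.8 to 119 in BS, against 0 to 12 in AG. It was not called by limma on all 9 libraries, but DESeq2 called it in BS.

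Auxiliary subunits made up 10 members, of which 3 were tested. The cytoplasmic beta subunits of Shaker-type channels divided. Kcnab1 had 0, 1.90 and 1.09 normalized reads in OB and 0, 1.07 and 5.91 in BS, against 407, 356 and 364 in AG. Every tumour library was near 0, and Kcnab1 fell by 7.69 on the log2 scale in OB (SE 0.71, limma adjusted p = 9.44e-05) and by 7.28 in BS (SE 0.71, limma adjusted p = 0.000126). Kcnab1 has several transcripts and overlaps A330015K06Rik on the opposite strand. Kcnab3 had 115, 243 and 94.6 in OB and 751, 234 and 271 in BS, against 80.0, 86.7 and 79.5 in AG. It was higher in BS by 2.13 ± 0.50 (limma adjusted p = 0.012), while in OB all libraries also lay above AG but the change of 0.75 ± 0.50 did not pass (limma adjusted p = 0.281). Kcnmb4, the neuronal beta subunit of the large-conductance calcium-activated channel, had 78.5, 214 and 417 in OB and 81.4, 331 and 339 in BS, against 8.34, 2.96 and 10.9 in AG. It was higher by 4.66 ± 0.79 in OB (limma adjusted p = 0.00224) and 4.79 ± 0.79 in BS (limma adjusted p = 0.00202), every tumour library lying above AG. Kcnma1, the pore gene that this subunit binds, was not analysed here.

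Noncoding RNAs made up 4 members, of which 3 were tested. Kcnmb4os2, on the strand opposite Kcnmb4, had 13.3, 89.5 and 90.2 normalized reads in OB and 21.0, 72.5 and 104 in BS, against 3.34, 1.97 and 2.18 in AG, and was called in both groups. Kcnd3os, opposite Kcnd3, had 0, 108 and 15.2 in OB and 50.3, 61.9 and 106 in BS, against 0.834, 0.986 and 0 in AG. Its change of 5.51 ± 1.42 in BS passed (limma adjusted p = 0.0171), but not with any of AG_1, AG_2, AG_3 or BS_296 left out (limma adjusted p 0.0517 to 0.0664, range over the alternatives 0.000166 to 0.0664). Both RNAs had their lowest OB value in OB_257, as did their coding partners, and without the strand setting the reads of a pair cannot be told apart. Kcnq1ot1, the imprinted antisense RNA of the Kcnq1 locus, stood at like levels in all groups, with 1011, 792 and 673 in OB and 631, 714 and 316 in BS, against 471, 619 and 625 in AG. The change was 0.52 ± 0.33 in OB (limma adjusted p = 0.246) and -0.12 ± 0.33 in BS (limma adjusted p = 0.806). The sign in BS turned under several settings.

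Levels of different genes were compared per kilobase, over the 52 members with 1 RefSeq transcript. In OB the highest means were those of Kcnj10, at 495 ± 313 normalized reads per kilobase (SD, n = 3), Kcna2 at 405 ± 429, Kcnd2 at 267 ± 235, Kcnk1 at 235 ± 209 and Kcnmb4 at 173 ± 125. In BS they were those of Kcnj10 at 403 ± 400.0, Kcnd2 at 387 ± 545, Kcna2 at 213 ± 193, Kcnmb4 at 183 ± 107 and Kcnab3 at 165 ± 114. Neighbours in either order differed by less than their SD. In AG the order was another: Kcnf1 led at 97.6 ± 3.89, ahead of Kcnab3 at 32.3 ± 1.59, Kcnj4 at 28.5 ± 4.92 and Kcnj2 at 16.7 ± 1.75. Kcnf1 stood above Kcnab3 by more than the spread between the AG libraries, whereas Kcnab3 and Kcnj4 did not differ beyond it. Kcnf1 itself averaged 66.0 ± 61.6 per kilobase in BS.

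OB and BS were compared directly to ask whether channel genes differ with the tumour site. limma called 0 of 39 members, and 0% of all genes tested. At an unadjusted p under 0.05 there were 5 members, among them Kcna6, Kcnab3, Kcnj13 and Kcnn3. The share of all genes under that cutoff was not counted, so the 5 are a description only. edgeR also called 0 members, and DESeq2 called 1 member and 233 of all genes. Without an overlap of libraries, Kcnn3 lay higher in OB, and Kcnj13 and Kcnt2 lay lower in OB. The share of all genes without such an overlap was not counted either, so this too is a description only. A difference between Kcnn3 in OB and BS of 1.73 ± 0.55 did not pass (limma adjusted p = 0.398), so its call in OB and not in BS is not shown to differ between the sites. The same holds for Kcnc1 (-4.97 ± 2.20, limma adjusted p = 0.522), Kcnk3 (-1.12 ± 1.63, limma adjusted p = 0.853) and Kcnab3 (-1.38 ± 0.50, limma adjusted p = 0.451). With the title number as a replicate block Kcnab3 was called (limma adjusted p = 0.04, range over the alternatives 0.04 to 0.957), although the numbers are not shown to pair the libraries.

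Tumour libraries of the same group varied widely. Of 27 members with a mean of at least 50 in a tumour group, OB_257 was the lowest of the 6 tumour libraries for 11 and the highest for 7, and it was at 0 for 5. OB_257 was also the tumour library with the most mature oligodendrocyte marker reads (26674) and the lowest astrocyte marker sum (6723). BS_287, by contrast, was the lowest for 2 members and the highest for 6. How often each library was the lowest or highest over all genes was not counted, so these counts are a description only. The part of the cell types in these differences was not tested.

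Other genes of potassium handling were described from lists of the sodium pump, HCN channels, cation-chloride cotransporters and channel partners. The shares of all genes called give the background again: 16.0% higher and 19.0% lower in OB, and 15.6% higher and 19.5% lower in BS. Of the genes named next, Atp1b2, Fxyd6, Dpp10 and Lgi3 had no AG library at 10 or more and passed the filter only through tumour libraries. Of 6 tested sodium pump genes 4 were called higher and 1 lower in OB, and again 4 higher and 1 lower in BS. Atp1b2, the glial beta subunit of the pump, had 1978, 3641 and 9799 normalized reads in OB and 1522, 8925 and 13482 in BS, against 4.93 to 9.17 in AG. It was higher by 9.01 ± 0.84 in OB (limma adjusted p = 9.86e-05) and 9.46 ± 0.84 in BS (limma adjusted p = 7.22e-05), and Fxyd6 was also called higher in both groups. Atp1b1 was called lower in OB, a call lost without AG_2 or AG_3.

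Of 3 tested HCN genes, which encode the channels of the hyperpolarization-activated current, Hcn3 was called in both groups, with 218, 212 and 249 normalized reads in OB and 299, 176 and 175 in BS, against 18.3, 26.6 and 17.4 in AG. The change was 3.40 ± 0.32 in OB (limma adjusted p = 0.000102) and 3.30 ± 0.32 in BS (limma adjusted p = 0.000121). The 1 cotransporter tested, Slc12a2, which brings potassium and chloride into cells, had 5186 to 9045 in OB and 2213 to 3699 in BS, against 6818 to 7301 in AG, and fell by 1.26 in BS (limma adjusted p = 0.00531). Of 7 tested channel partners 3 were called higher in OB and 2 in BS, with 0 lower. Dpp10, which binds Kcnd channels and speeds their gating, had 39.8, 133 and 1355 in OB and 0, 7.47 and 12.8 in BS, against 0 reads in AG, and was called in OB (limma adjusted p = 0.00274). Adam23 was called in both groups, Lgi3 in OB and Lrrc55, a partner of large-conductance channels, in BS. The call of Lgi3 in OB was lost with any of the 6 libraries left out (limma adjusted p 0.0601 to 0.123), and also with a pseudocount of 5, with quantile normalization and without a variance trend. The calls of Adam23 and Lrrc55 in BS were each lost with 5 of the 6 libraries left out in turn (limma adjusted p up to 0.114 and 0.101).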

How the data were processed

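Per the labels' protocols, RNA was extracted with Sepazol and libraries were prepared with a TruSeq Strand HT kit for a HiSeq3000. DESeq2 1.20.0, Subread 1.6.2 with featureCounts, HISAT2 2.1.0, bcl2fastq 1.8.4 and the build mm9 appear in the submitters' processing notes, in no stated order or role. They do not state the annotation, the strand setting or how shared reads were counted.

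The values are signal as the authors deposited it, normalized reads of 16260 RefSeq transcripts in 9 libraries. Dividing by 1 step per library gave whole reads within 0.05 reads for 100% of values. Names came from RefSeq (16202) or GENCODE (41) tables, 17 rows stayed unnamed and out of the tests, and rows were added per symbol. No columns of per-sample values were left unmapped.

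limma 3.58.1 in R 4.3.3 was run on log2(value + 1) of all 9 libraries with a mean per group and a variance trend, two-sided, with Benjamini-Hochberg adjustment over 10576 genes in each of 3 comparisons. Alternatives were pseudocounts of 0.5 and 5, a filter of 50 or none, other scalings, other variance settings, the highest row per symbol, fits of 2 groups, the recovered reads in edgeR 4.0.16 and in DESeq2 1.42.0, each library left out, and the title number as a block. Floors are 3 reads per library and cover counting error only. A fitted change of a gene at 0 reads depends on the pseudocount and is no bound. Promoters are RefSeq's on GRCm38.p6, and gene overlaps come from GENCODE; table and tests used no coordinates. Python 3.11.15 and matplotlib 3.10.9 drew the figures.

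Some items are not reported here. Otherwise, members named with all values are those called with a mean of at least 100 in the highest group, or never called with a mean of at least 500. Other named members, and the companion lists, follow their class counts. Members and lists were chosen with earlier results of these data known.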

Additional observations from a re-analysis of the deposited data

How the results depend on the processing

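Against AG, leaving out each library in turn gave 14 to 23 called members in OB and 16 to 22 in BS. Over all genes these fits called 2086 to 3719 of 10173 to 10449 in OB, and 2001 to 3562 of 10173 to 10456 in BS. edgeR called 26 in OB, all 18 of limma's among them, and 22 in BS, all 20 among them. Of all 10576 genes it called 3724 in OB and 3679 in BS. DESeq2 called 24 in OB and 25 in BS, sharing 17 and 20, and gave Kcnu1 in OB no adjusted p. Of all 10576 genes it called 4281 in OB and 4270 in BS. Of 1357 values of single genes under an alternative, 1283 kept direction and side of the threshold, 36 lost the call, 31 gained it and 7 changed sign. The sign changes were Kcna6 in BS (0.76 by edgeR, 0.72 by DESeq2, 0.65 without BS_287; -2.75 to 0.65 with a library left out) and the log2 change of Kcnq1ot1 in BS against AG (0.0933 with upper-quartile scaling, 0.0166 with quantile normalization, 0.010 by edgeR, 0.24 without BS_296; -0.34 to 0.24 with a library left out), none of them called. The cause was not tested. Upper-quartile scaling moved the median of all genes to 0.18 and the split of calls to 2158 higher and 1675 lower in OB, against 1687 and 2008, and to 2135 and 1674 in BS, against 1652 and 2060. Calls over all genes fell to 2001 to 2098 without an AG library, against 3719 without OB_257 and 3589 without OB_287; the cause was not tested.

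For OB against BS, DESeq2 called 1 member (233 of 10576 genes), and leaving out a library gave 0 to 1, beside 0 to 67 of all genes. With the title number as a replicate block 3 members were called, 1 higher and 2 lower, Kcna6 and Kcnab3 among them, beside 131 of all genes. The labels do not say what the number marks, and deviations of same-numbered libraries correlated at 0.069 (BS_287 with OB_287) and 0.299 (BS_295 with OB_295), so the numbers are not shown to pair the libraries. Low values of genes with several transcripts limit what the table can show of them.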
